A study of Mus musculus with 14 samples.

Results

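The 10 genes described here encode members of the tumour necrosis factor (TNF) superfamily other than CD40 and its ligand. They are 7 ligands (Tnfsf4, Tnfsf9, Cd70, Tnfsf13b, Tnfsf14, Ltb and Tnf) and 3 receptors (Tnfrsf4, Tnfrsf9 and Fas). They were taken by gene symbol, and all 10 were found among the 23420 rows of the expected-count table. Transcript levels were measured in mouse dendritic cells by Smart-seq2, a full-length RNA-seq method for small numbers of cells, with 150 sorted cells per library. The cells had been sorted after LIPSTIC labelling, in which a T cell whose CD40 ligand carries the enzyme sortase A transfers a biotin tag to the CD40 of a cell it touches.

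All mice were C57BL/6, and the cells came from the popliteal lymph node. The 6 biotin-positive and 6 biotin-negative libraries shared the genotype G5-Cd40+/+, in which CD40 carries the G5 tag that accepts the label. These recipients were Cd40G5/G5 mice that received Cd40G5/G5 dendritic cells pulsed with OVA323-339 at 500000 per footpad, and 18 h later 300000 OT-II CD4+ T cells intravenously, which carried CD40lgSrtA/Y and CD4-Cre. Biotin-LPETG, the sortase substrate, was given at 300 nmol per footpad 46 h after the T cells, and lymph nodes were taken at 48 h. The 2 Cd40-null libraries came from Cd40-/- mice that received WT dendritic cells and WT OT-II T cells, so host genotype and both transferred populations differ together from the other groups and their effects cannot be told apart. In every group the sorted cells were endogenous MHC-II-high CD11c+ CD11b+ XCR1- dendritic cells, not the transferred ones. The age and sex of the mice, and whether replicates came from separate mice, are not stated, so p-values measure only the spread between these libraries.

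TNF superfamily ligands are mostly trimeric membrane or secreted proteins that cluster their receptors on a neighbouring cell. The receptors recruit TRAF adaptors and switch on NF-kB, and those with a death domain, such as Fas, can also start caspase-8-dependent apoptosis. On dendritic cells several of the ligands act as costimulators of T cells: OX40 ligand (Tnfsf4), 4-1BB ligand (Tnfsf9) and CD70 bind OX40, 4-1BB and CD27 on T cells. Engagement of CD40, itself a receptor of this family, is a classical signal for dendritic cells to raise such ligands.

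Promoter windows from RefSeq (mouse build GRCm38.p6, the 250 bases before a transcription start) were matched for 7 of the 10 genes in 9 windows. Promoters of Tnfsf4, Tnfsf9 and Cd70 were not used here. Windows of 3 members are shown: Tnfrsf9, the member with the highest level per kilobase of exons in every group, Ltb, the other member with a match to the NF-kB consensus, and Fas, the receptor that was lower in most biotin-positive libraries. Capitals mark matches to the NF-kB consensus or to the AP-1 site TGANTCA, searched on both strands.

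Tnfrsf9, downstream start, chr4:150927749-150927998, plus strand: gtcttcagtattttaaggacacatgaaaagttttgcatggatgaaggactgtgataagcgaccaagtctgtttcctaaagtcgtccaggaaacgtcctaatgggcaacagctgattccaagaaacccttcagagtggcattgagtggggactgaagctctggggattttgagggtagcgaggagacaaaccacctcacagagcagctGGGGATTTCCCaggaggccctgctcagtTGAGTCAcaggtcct
Ltb, chr17:35194257-35194506, plus strand: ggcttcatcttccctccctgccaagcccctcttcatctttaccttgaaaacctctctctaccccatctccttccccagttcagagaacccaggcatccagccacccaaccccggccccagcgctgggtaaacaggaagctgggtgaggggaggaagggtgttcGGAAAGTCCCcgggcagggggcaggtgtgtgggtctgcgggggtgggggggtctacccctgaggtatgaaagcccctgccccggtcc
Fas, chr19:34290409-34290658, plus strand: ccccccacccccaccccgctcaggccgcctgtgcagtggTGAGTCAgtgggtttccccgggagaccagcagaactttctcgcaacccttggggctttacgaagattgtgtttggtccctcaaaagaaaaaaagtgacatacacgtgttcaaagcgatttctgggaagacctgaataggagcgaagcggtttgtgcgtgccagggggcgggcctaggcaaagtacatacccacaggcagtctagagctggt

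The upstream start of Tnfrsf9 (chr4:150919905-150920154) holds neither motif. In the window of its downstream start the overlapping NF-kB matches GGGGATTTCC and GGGATTTCCC lie 43 to 34 and 42 to 33 bases before the start, and TGAGTCA lies 15 to 9 bases before it. The Ltb window holds GGAAAGTCCC at 87 to 78 bases before the start, and the Fas window holds TGAGTCA at 211 to 205 bases. An NF-kB match was found in 2 of the 9 windows of members and in 7.25% of all 32851 windows of this length. An AP-1 match was found in 4 of the 9 windows (1 each of Tnfrsf9, Tnfsf13b, Tnfsf14 and Fas) and in 6.75% of all windows. These matches describe letters in the windows, and binding was not measured.

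Total counts ran from 14518099 to 33260704 per library, the largest in biotin-positive replicate 5. Levels are given as CPM, the counts scaled to a common library total with TMM factors. Cd40, the gene deleted in the null mice, stood at 852 to 1309 CPM in the biotin-positive, 386 to 598 CPM in the biotin-negative and 53.3 and 74.2 CPM in the Cd40-null libraries, so the groups did not overlap and stood in the order of their labels in all 14. The number of genes detected set the biotin-negative cells apart, at 13090 to 13455 in the biotin-positive, 14225 to 15742 in the biotin-negative and 13113 to 13596 in the Cd40-null libraries. Both lists of dendritic cell markers were abundant in every library, and neither overlapped between the biotin-positive and biotin-negative libraries. The summed level of 12 markers of mature migratory dendritic cells was 22793 to 28828 CPM in the biotin-positive, 14222 to 17897 CPM in the biotin-negative and 14878 and 17259 CPM in the Cd40-null libraries. Of these Fscn1 (means of 7172 and 3185 CPM in the biotin-positive and biotin-negative cells) and Ccl22 (5526 and 1886 CPM) differed most. Ccr7 (2886 and 3260 CPM), Marcks, Relb and Socs2 had lower means in the biotin-positive cells, Cd83 and Cd86 were near-equal, and the others were higher. The summed level of 12 conventional dendritic cell markers was 2558 to 4236, 5029 to 8680, and 4224 and 5244 CPM. Here Cd74 (means of 920 and 2743 CPM in the biotin-positive and biotin-negative cells), H2-Aa (442 and 1776 CPM) and H2-Ab1 (230 and 1245 CPM) differed most. Flt3 (1015 and 849 CPM) and Zbtb46 (189 and 161 CPM) had higher means in the biotin-positive cells, and the other markers of this list had lower ones. Itgam, which encodes CD11b, the integrin used in the sort, was low in the biotin-positive cells at a mean of 1.91 CPM, against 25.3 CPM in the biotin-negative and 14.7 CPM in the Cd40-null cells (edgeR adjusted p = 0.0145 for positive against negative).

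Lists of markers of other cells also moved with the sort. The mean log2 CPM of 18 monocyte and macrophage markers was 0.96 ± 0.55 (SD, n = 6) in the biotin-positive and 3.17 ± 0.90 (SD, n = 6) in the biotin-negative libraries (adjusted p = 0.00541, exact two-sided permutation test, Benjamini-Hochberg over 5 lists). Their summed level ran from 160 to 352 CPM and from 351 to 1436 CPM, with 471 and 678 CPM in the Cd40-null libraries. The tested natural killer markers (5 of 11) were also lower in the biotin-positive cells, by 1.35 (exact permutation test, adjusted p = 0.00722). Only markers past the filter on low counts enter this mean. A low marker can pass through the group where it is higher, so this p-value cannot be read apart from the filter. Of that list Klrk1 (means of 42.9, 143 and 119 CPM in the biotin-positive, biotin-negative and null cells) and Klrd1 (5.89, 36.9 and 29.7 CPM) held nearly all counts, and the other 9 markers each had a mean below 1.2 CPM in every group. Ncr1, which defines natural killer cells, had counts in 2 of 6 biotin-negative libraries and in no other library. The mean of the 20 T cell markers was higher in the biotin-positive cells by 1.38 on the log2 scale (exact permutation test, adjusted p = 0.00812). Their summed levels were 40.5 to 82.4 CPM against 34.4 to 109 CPM. Cd4 (means of 5.81 and 18.6 CPM) and Icos (2.16 and 6.56 CPM) were lower in the biotin-positive cells, and Tcf7 was near-equal (18.3 and 16.8 CPM). The other T cell markers had higher means there, all low, at 6.44 CPM (Lck) or less. Cd40-null replicate 1 had the highest summed T cell level, 235 CPM, against 51.1 CPM in replicate 2. Langerhans cell markers (5 of 6 tested) were higher in the biotin-positive cells by 1.84 (exact permutation test, adjusted p = 0.00541), while B cell markers (9 of 10 tested) differed by 0.43 with p = 0.597 in the same exact permutation test. The part of these marker lists in the results on the 10 members was not tested, other than by fits that took the T cell level or the count of genes detected as a covariate. Both differed between the sorted groups, so those fits can tell them from the sort in part at most. In bulk samples, fewer cells of a type and less RNA per cell cannot be told apart.

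Setting the biotin-positive beside the biotin-negative cells asks how dendritic cells that were touched by T cells through CD40 differ from endogenous dendritic cells of the same kind of recipient that were not labelled. Of the 10 members, 1 ligand was lower in the labelled cells and none was higher: Tnfsf9 fell 2.76-fold. Fas was 1.49-fold lower but missed the threshold, and the other receptors, Tnfrsf4 and Tnfrsf9, were slightly higher without passing it. The single call, 1 of 10, stands beside a background of 4.05% of the 14217 genes tested that were lower and 3.7% that were higher. Called either way were 7.75% (1102 genes). An unadjusted edgeR p under 0.05 was found for 2 members. Such values were common, as over all 14217 genes an unadjusted p of 0.0551 stood at rank 3112. In no member were the groups free of overlap, as they were in 5.02% of all genes. The median log2 fold change of the members was -0.06, beside -0.03 over all genes tested.

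Tnfsf9 (chr17:57105325-57107757, plus strand, GRCm38, GENCODE M21) encodes 4-1BB ligand, a costimulator of T cells and natural killer cells. Its level in the 6 biotin-positive libraries, in replicate order, was 9.84, 26.5, 8.35, 8.58, 36.1 and 8.87 CPM. In the 6 biotin-negative libraries it was 41.6, 54.7, 28.4, 39.2, 34.8 and 73.4 CPM, and in the Cd40-null libraries 2.66 and 6.76 CPM. Most of the biotin-positive libraries lay near 9 CPM, replicates 2 and 5 were higher, and replicate 5 overlapped the lowest biotin-negative libraries, 3 and 5. Group means were 16.4 ± 11.97 (SD, n = 6), 45.3 ± 16.3 (SD, n = 6) and 4.71 ± 2.91 (SD, n = 2) CPM.

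The log2 fold change of Tnfsf9 in biotin-positive over biotin-negative cells was -1.46 (SE 0.40, edgeR quasi-likelihood test with Benjamini-Hochberg adjustment, adjusted p = 0.0327). The direction held in all 24 alternatives, but the call did not: it was made in 5 of 12 fits with 1 library left out (adjusted p 0.0048 to 0.0753) and in 10 of the 12 other alternatives (0.00327 to 0.783). It was lost without biotin-positive replicate 1, 3, 4 or 6 (0.0696, 0.0731, 0.0717 and 0.0732) and without biotin-negative replicate 1, 2 or 6 (0.0513, 0.0638 and 0.0753). It was also lost with the mean T cell marker level as a covariate (-1.12, adjusted p = 0.260). That level itself barely overlapped between the groups. Its mean log2 CPM ran from -0.58 to 1.07 in the biotin-positive and from -1.42 to -0.49 in the biotin-negative libraries. This fit can thus tell it from the sort only in part and does not decide the call. With genes detected as a covariate (log2 fold change -0.90, SE 0.82, adjusted p = 0.783) the call was lost in a fit that called 11 genes in all. Genes detected did not overlap between these groups, so that fit can hardly tell the covariate from the sort and does not decide the call. Without biotin-positive replicate 5, the library that overlapped, the log2 fold change was -1.87 (adjusted p = 0.0048).

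Exons of Tnfsf9 overlap exons of Gm11110, a lincRNA on the opposite strand. Whether the counting used strand is not stated, and Smart-seq2 does not mark it, so reads in the overlap cannot be told apart. Gm11110 had 4.13 ± 2.00 CPM (SD, n = 6) in the biotin-positive, 1.62 ± 1.55 CPM (SD, n = 6) in the biotin-negative and 1.19 ± 0.88 CPM (SD, n = 2) in the Cd40-null libraries. Its mean thus lay the other way from that of Tnfsf9 (log2 fold change 1.35, SE 0.85, edgeR adjusted p = 0.418).

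**Figure D1:**
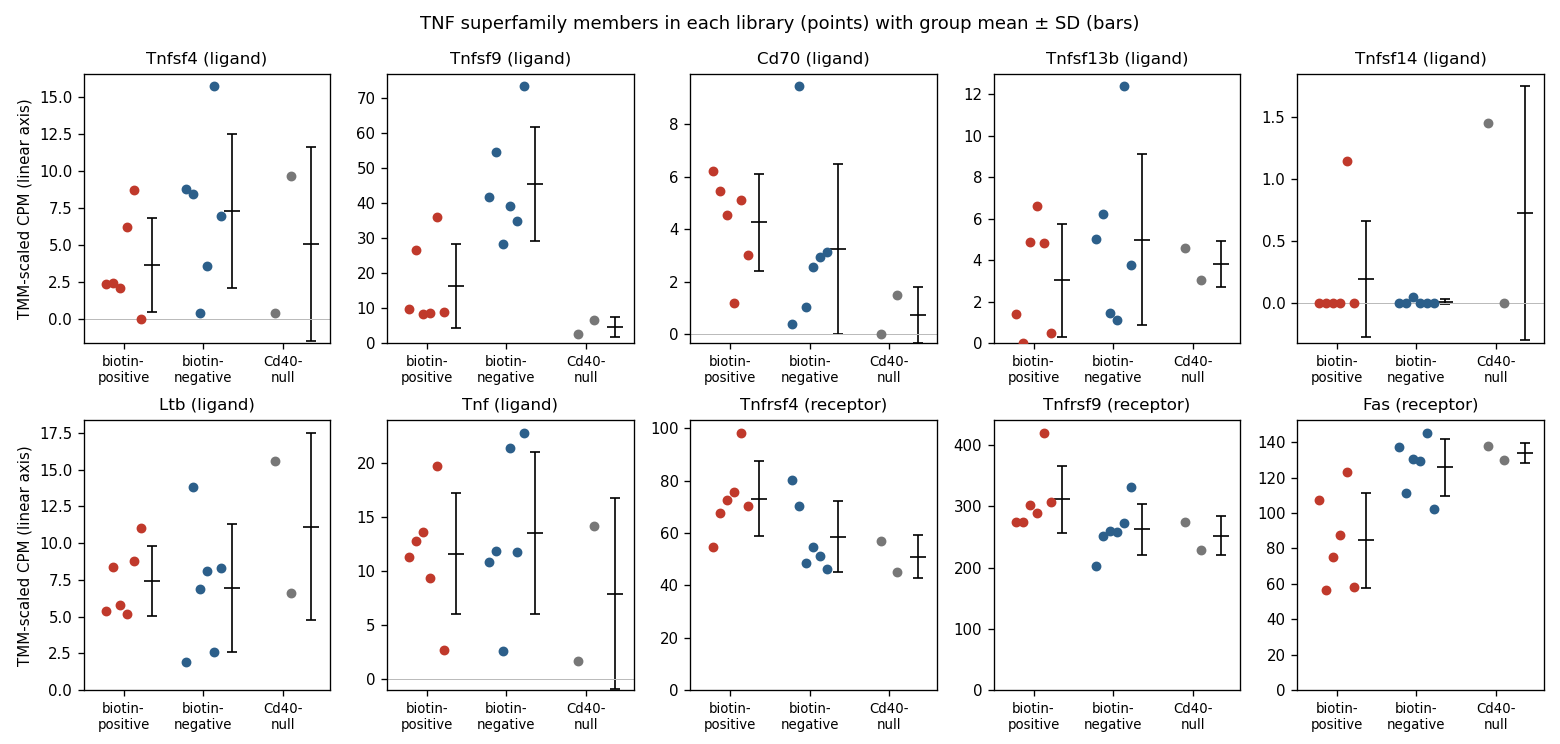
TMM-scaled CPM (linear axes) of the 10 members in each library, with 1 panel per gene; points are libraries in replicate order, and the bar beside each group is its mean ± SD. Tnfsf9 lies at 28.4 CPM or above in all biotin-negative libraries and at 2.66 and 6.76 CPM in the Cd40-null libraries, with biotin-positive replicates 2 and 5 above the rest of their group.

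Fas (chr19:34290666-34327772, plus strand) encodes the death receptor CD95. Its level was 107, 56.4, 75.5, 87.6, 123 and 58.3 CPM in the biotin-positive libraries. In the biotin-negative libraries it was 137, 111, 131, 129, 145 and 103 CPM, and in the Cd40-null libraries 138 and 130 CPM. In the biotin-positive group 4 libraries lay below every other library, while replicates 1 and 5 fell within the biotin-negative range. The group means were 84.7 ± 26.8 (SD, n = 6), 126 ± 16.1 (SD, n = 6) and 134 ± 5.59 (SD, n = 2) CPM.

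For Fas the log2 fold change between labelled and unlabelled cells was -0.57 (SE 0.18, edgeR adjusted p = 0.0576), just outside the threshold. The gene passed it with no filter on low counts (0.0493), in DESeq2 (0.0177), in limma voom (0.0190) and without biotin-positive replicate 1 (0.0428) or 5 (-0.71, adjusted p = 0.0128), and with the replicate number as a block (0.0177). In the remaining alternatives it did not pass, and its adjusted p reached 0.815 with genes detected as a covariate, which did not overlap between these groups. Against the Cd40-null libraries all 6 biotin-positive libraries were lower, with a log2 fold change of -0.66 (SE 0.24, adjusted p = 0.202).

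Tnfrsf9 (chr4:150914562-150946102, plus strand) encodes 4-1BB, the receptor of the Tnfsf9 product, and was the most abundant member. It stood at 275, 275, 302, 290, 419 and 307 CPM in the biotin-positive libraries. The biotin-negative libraries gave 202, 251, 259, 257, 272 and 331 CPM, and the Cd40-null libraries 275 and 229 CPM. All biotin-positive libraries were above 5 of the 6 biotin-negative ones, and replicate 5 was far above the rest of its group. The log2 fold change was 0.25 (SE 0.12, edgeR adjusted p = 0.278), and the groups overlapped.

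Tnfrsf4 (chr4:156013843-156016612, plus strand) encodes OX40, best known on activated T cells. Its level was 54.6, 67.6, 72.7, 75.6, 98.1 and 70.3 CPM in the biotin-positive, 80.2, 70.5, 48.8, 54.7, 51.1 and 46.2 CPM in the biotin-negative, and 56.9 and 45.3 CPM in the Cd40-null libraries. The middle of the biotin-positive range lay above most unlabelled libraries, but biotin-negative replicates 1 and 2 reached it. The log2 fold change was 0.32 (SE 0.17, edgeR adjusted p = 0.304).

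The remaining ligands were low and variable, and none passed the test. Tnf (chr17:35199381-35202007, minus strand), the inflammatory cytokine that names the family, was at 11.3, 12.8, 13.6, 9.36, 19.7 and 2.68 CPM in the biotin-positive and 10.8, 11.9, 2.58, 21.3, 11.7 and 22.7 CPM in the biotin-negative libraries. The ranges covered each other, and the log2 fold change was -0.22 (SE 0.54, edgeR adjusted p = 0.888). Ltb (chr17:35194439-35196320, plus strand), 3060 bases from Tnf, encodes lymphotoxin beta, the membrane subunit of a heterotrimer that acts in lymph node organisation. It ran from 5.17 to 11.04 CPM, median 7.09, in the biotin-positive and from 1.93 to 13.8 CPM, median 7.51, in the biotin-negative libraries, a log2 fold change of 0.10 (SE 0.45, adjusted p = 0.946).

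Tnfsf4 (chr1:161395409-161418410, plus strand), which encodes OX40 ligand, was counted in 5 of 6 biotin-positive and all 6 biotin-negative libraries. It ran from 0 to 8.69 CPM with a mean of 3.61 ± 3.19 (SD, n = 6) in the former and from 0.42 to 15.7 CPM with a mean of 7.29 ± 5.20 (SD, n = 6) in the latter. This spread covered the log2 fold change of -1.01 (SE 0.93, edgeR adjusted p = 0.625). Cd70 (chr17:57145997-57149777, minus strand) encodes the ligand of CD27 and had 6.22, 5.45, 4.54, 1.21, 5.14 and 3.04 CPM in the biotin-positive libraries. In the biotin-negative ones it had 0.39, 9.44, 1.03, 2.56, 2.96 and 3.15 CPM. Replicate 2 held the highest level of that group and lay above every biotin-positive library, and the log2 fold change was 0.39 (SE 0.85, adjusted p = 0.872).

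Tnfsf13b (chr8:10006467-10039072, plus strand) encodes BAFF, a survival factor for B cells. It ran from 0 to 6.59 CPM in the biotin-positive and from 1.1 to 12.4 CPM in the biotin-negative libraries, with a log2 fold change of -0.72 (SE 0.88, edgeR adjusted p = 0.737). Tnfsf14 (chr17:57189492-57194177, minus strand) encodes LIGHT, a ligand of the herpesvirus entry mediator and of the lymphotoxin beta receptor, and was nearly absent from the counts. It had 37 counts in biotin-positive replicate 5 (1.14 CPM), 1 count in biotin-negative replicate 3 and 36 counts in Cd40-null replicate 1 (1.45 CPM), and was at 0 in the other 11 libraries. It passed the filter on low counts through single libraries, and no fold change is read from its fit. A count of 0 allows up to 0.213 CPM in biotin-positive replicate 4, the shallowest library, taking 3 counts as the limit and counting error alone.

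**Figure D2:**
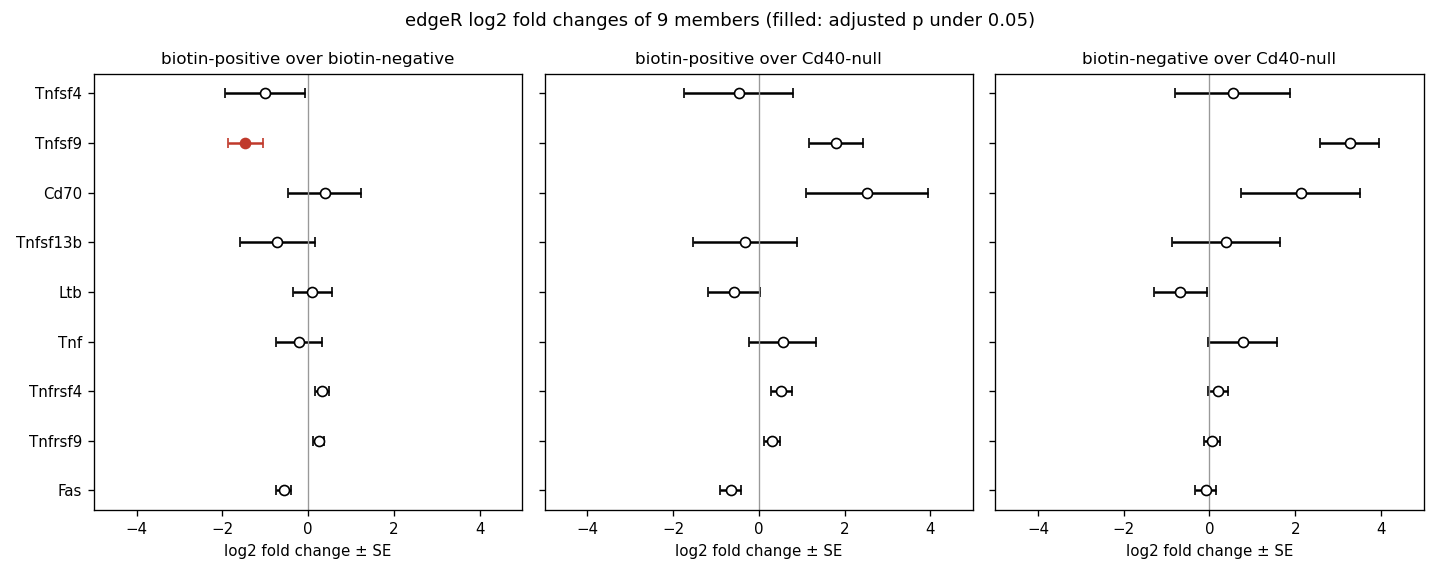
edgeR log2 fold change ± SE (linear axis) of 9 members in the 3 comparisons, Tnfsf14 left out because it was counted in single libraries; filled points have an adjusted p under 0.05. Tnfsf9 is the filled point, at -1.46 in biotin-positive over biotin-negative cells, and the low ligands Tnfsf4, Cd70 and Tnfsf13b carry the widest errors.

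The comparisons with the Cd40-null cells ask how each sorted population differs from dendritic cells of mice without CD40. No member passed the test against them in the edgeR fit. For the biotin-positive cells this was 0 of 10, beside 2.27% of all genes tested. An unadjusted edgeR p under 0.05 was found for 2 members, while over all genes a p of 0.0501 stood at rank 1966. DESeq2 called 1 member there, Tnfsf9, beside 5.56% of all genes. For the biotin-negative cells edgeR called 0 of 10, beside 0.317%, and DESeq2 called 1, again Tnfsf9, beside 1.87%. Here too 2 members had an unadjusted edgeR p under 0.05, and over all genes p of 0.0209 and 0.145 stood at ranks 666 and 3185. The 2 null libraries lie far apart in Tnfsf4, Tnf and Cd70, and both comparisons share them.

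Tnfsf9 had the lowest adjusted p of the members in both comparisons. All 6 biotin-negative libraries lay above both null libraries, 28.4 to 73.4 CPM against 2.66 and 6.76 CPM, a log2 fold change of 3.27 (SE 0.69, 9.66-fold, edgeR adjusted p = 0.0599). It passed with no filter on low counts (0.0373), in DESeq2 (3.33e-06), in limma on the deposited normalized values (0.0252) and in a fit of these groups alone (0.0371), and its adjusted p reached 0.619 over all alternatives. All 6 biotin-positive libraries were above the null ones as well, with a log2 fold change of 1.81 (SE 0.63, adjusted p = 0.179), and DESeq2 called it (0.0314). Groups that do not overlap were found for 10.7% of all genes in the first comparison and 15.9% in the second, and for 1 and 2 members, respectively. The order of the means was thus biotin-negative, biotin-positive and Cd40-null, and of its steps the first passed the test.

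Fas was the other member whose biotin-positive and null libraries did not overlap, and it was near-equal in biotin-negative and null cells, with a log2 fold change of -0.09 (SE 0.25, edgeR adjusted p = 0.970). Tnfrsf9 differed by 0.30 (SE 0.18, adjusted p = 0.490) and 0.06 (SE 0.18, adjusted p = 0.972) from the null cells in the labelled and unlabelled cells. Tnfrsf4 differed by 0.52 (SE 0.25, adjusted p = 0.363) and 0.20 (SE 0.24, adjusted p = 0.868). For the receptors these errors are small, and for the low ligands they are not. Cd70 was at 0 and 1.5 CPM in the null libraries and had log2 fold changes of 2.51 (SE 1.42, adjusted p = 0.469) and 2.12 (SE 1.39, adjusted p = 0.646).

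Among the ligands Tnf was at 1.65 and 14.2 CPM, Tnfsf4 at 0.40 and 9.65 CPM, Ltb at 15.6 and 6.61 CPM and Tnfsf13b at 4.59 and 3.05 CPM in the null libraries. The pair spanned most of the range of the other groups for Tnf and Tnfsf4, and Cd40-null replicate 1 held the highest Ltb level of all 14 libraries. That library also had the highest T cell marker level, 235 CPM, and a summed B cell marker level of 80.2 CPM, against 11.3 CPM in Cd40-null replicate 2. Lymphotoxin beta is made by lymphocytes, and the part of those cells in the level was not tested. The log2 fold changes of these 4 ligands against the null cells lay between -0.68 and 0.78, with adjusted p between 0.766 and 0.973.

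Per kilobase of exons the member receptors stood above the member ligands in each group. In the biotin-negative cells the order was Tnfrsf9 (96.3 CPM per kb), Fas (61.1), Tnfrsf4 (42.9), Tnfsf9 (35.2), Tnf (8.24), Ltb (4.58), Tnfsf4 (3.96), Cd70 (3.87), Tnfsf13b (0.73) and Tnfsf14 (0.0042). In the biotin-positive cells Tnfrsf4 (53.6 CPM per kb) came before Fas (41.1), and Tnfsf9 was at 12.7. In the Cd40-null cells Tnfsf9 was at 3.65, below Ltb at 7.33 and Tnf at 4.82. Among the member ligands Tnfsf9 was therefore the highest in both Cd40-sufficient groups and the third in the null cells. Ligands of the superfamily outside the members were left out of this ranking, which describes means with no test between genes.

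**Figure D3:**
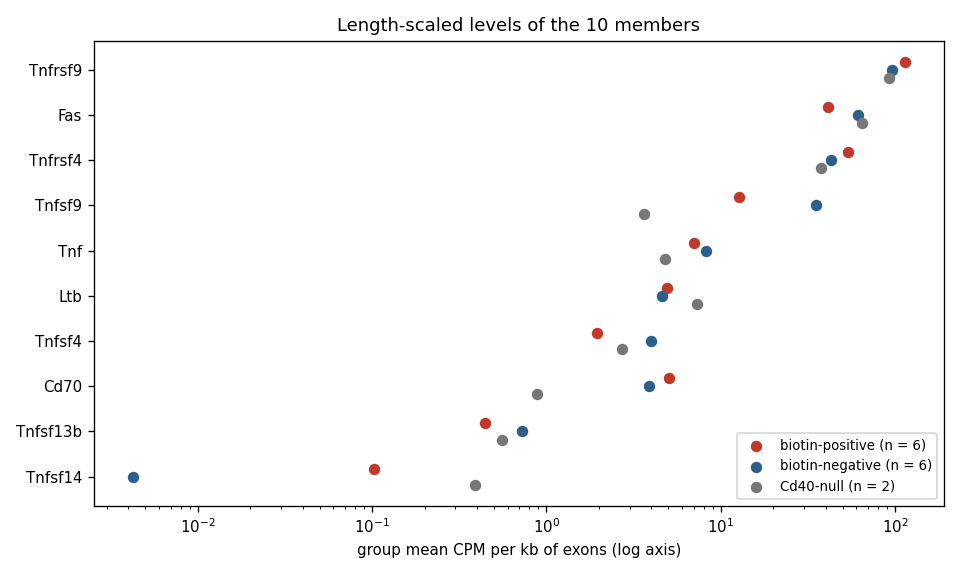
Group mean CPM per kb of exons (log axis) of the 10 members, ordered by the biotin-negative mean; each point is the mean of 6, 6 or 2 libraries. The 3 receptors lie between 37.4 and 114 CPM per kb in every group, whereas Tnfsf9 spreads from 3.65 in the Cd40-null to 35.2 in the biotin-negative cells.

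Biotin-positive replicate 5 held the highest level of its group for 7 of the 10 members (Tnfsf4, Tnfsf9, Tnfsf14, Tnf, Tnfrsf4, Tnfrsf9 and Fas) and the lowest for none. It was also the deepest library, at 33260704 counts, and its share of counts from the ribosomal precursor Rn45s, 16.6%, lay within the 15.0% to 19.5% of its group. Its summed B cell marker level, 94.6 CPM, was the highest of all 14 libraries, and the part of B cells in its levels was not tested. No other library of that group was highest for more than 1 member. Without replicate 5 the test of biotin-positive against biotin-negative cells called 2 members, Tnfsf9 and Fas, both lower, beside 1106 of 14146 genes either way.

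The genes whose log2 CPM was most like that of Tnfsf9 over the 14 libraries, among 9382 genes with a mean of at least 5 CPM, were F830016B08Rik (Pearson r = 0.89), G530011O06Rik (0.88) and Gm10845 (0.88). All are loci named by clone or model number. After each group's mean was removed, r was 0.60, 0.57 and 0.65. The libraries share depth and group differences, and the values are a description with no test.

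**Figure D4:**
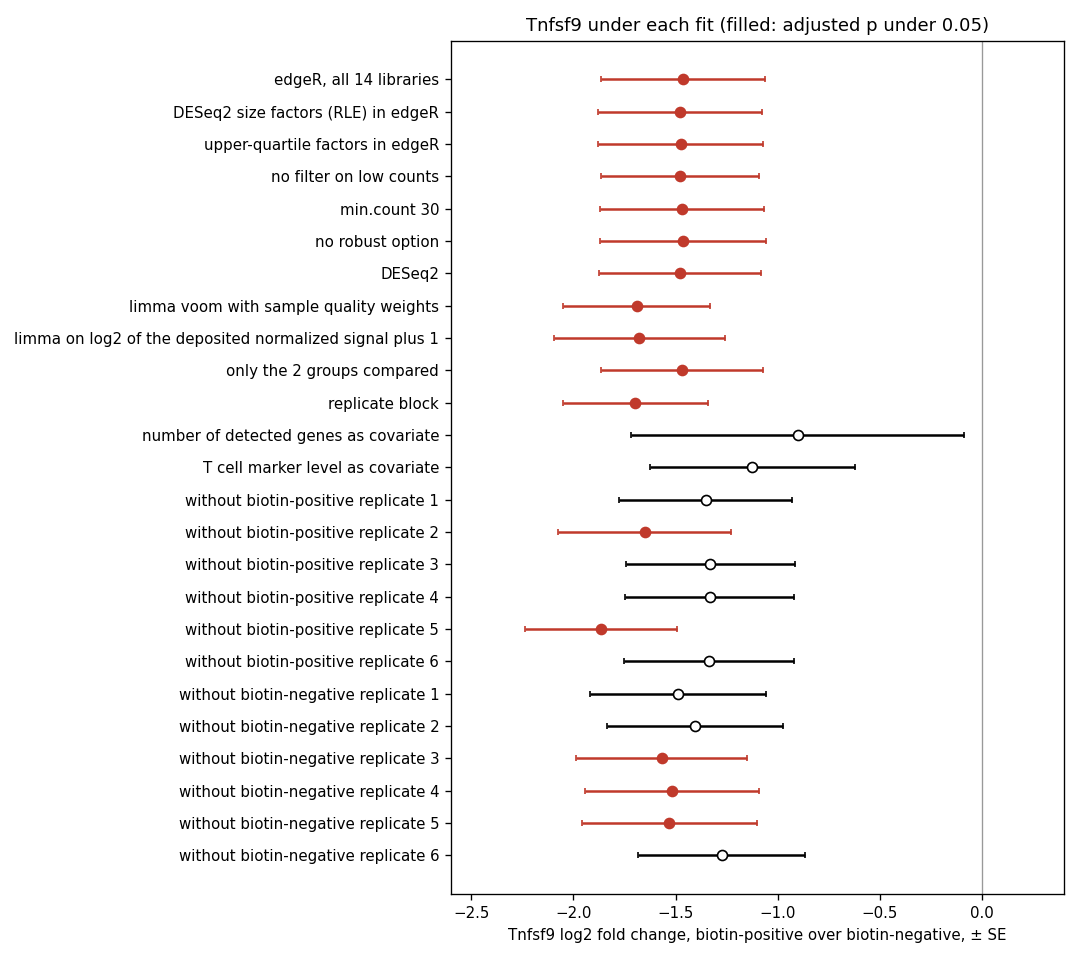
Log2 fold change ± SE (linear axis) of Tnfsf9 in biotin-positive over biotin-negative cells in the edgeR fit of all 14 libraries and in 24 alternatives; filled points have an adjusted p under 0.05. All lie below 0, from -1.87 to -0.90, and the open points are 7 fits with 1 library left out and 2 with a covariate.

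The other genes of the superfamily were read from a fixed list of 11 ligands and 24 receptors, of which 6 and 22 had enough counts to test. In the edgeR test of biotin-positive against biotin-negative cells 2 of the 28, both receptors, were lower and none was higher, beside 4.05% and 3.7% of all genes, with a median log2 fold change of -0.10. DESeq2 called 3 lower and 1 higher, beside 11.2% of all genes either way. Limma voom called 4 lower and 1 higher, beside 1278 of all 14217 genes either way. The genes added there, named after their values were seen, were Tnfrsf14 (lower in both tools), Tnfrsf21 (lower in voom), Tnfrsf26 (higher in DESeq2) and Tnfsf8 (higher in voom). In the biotin-positive and biotin-negative cells their means were 5.76 and 11.7, 3.10 and 13.7, 1.96 and 0.03, and 3.82 and 0.98 CPM. Tnfrsf26 had counts in 4 of 6 and 2 of 6 libraries. Genes as low as Tnfrsf26 and Tnfsf8 can pass the filter on low counts through the group where they are high, so no increase is read from their calls. Tnfrsf10b, a death receptor for TRAIL, was at 21.6 to 25.6 CPM, median 23.1, in the biotin-positive and 30.5 to 45.9 CPM, median 37.6, in the biotin-negative libraries. These ranges did not overlap, and the null libraries lay at 16.2 and 22.8 CPM. The log2 fold change was -0.70 (SE 0.16, edgeR adjusted p = 0.0111), and the call was made in all 12 fits with 1 library left out and in 10 of the 12 other alternatives, the exceptions being the fits with a covariate.

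The second receptor called was Ngfr, the low-affinity neurotrophin receptor, named here after its values were seen because its level lies below the 5 CPM set for naming genes. It had counts in 1 of 6 biotin-positive and all 6 biotin-negative libraries, at means of 0.067 and 3.25 CPM (edgeR adjusted p = 0.0311), and was called in 5 of the 12 fits with 1 library left out. In edgeR none of the 28 passed against the null cells in either direction, for the biotin-positive or the biotin-negative cells. DESeq2 called Tnfsf15 higher in the biotin-positive cells (log2 fold change 4.08, adjusted p = 0.0126) and Tnfrsf10b higher in the biotin-negative cells (0.96, adjusted p = 0.0033). Tnfsf15 had 13 counts over the 2 null libraries (0.04 and 0.62 CPM), against 1.19 to 15.1 CPM in the biotin-positive ones. Its fold thus rests on null levels near the floor. Limma voom called Ngfr lower in the biotin-positive cells (adjusted p = 0.027), and limma on the normalized signal called Tnfrsf10b in the biotin-negative cells (adjusted p = 0.0379). In edgeR the median log2 fold changes were -0.25 and 0.04. Among the ligands Fasl, which encodes the partner of Fas, was at 0 in all 14 libraries, and Cd40lg had counts in 1 biotin-positive library. The most abundant other receptor was Tnfrsf1b, which encodes TNF receptor 2, at means of 1602, 1322 and 1859 CPM in the biotin-positive, biotin-negative and null cells.

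Of 35 genes that carry signals from these receptors, all tested, 3 were higher and none lower in the biotin-positive than in the biotin-negative cells in edgeR, beside 3.7% and 4.05% of all genes, with a median log2 fold change of 0.13. DESeq2 called 6, all higher, beside 734 of all 14217 genes higher and 11.2% either way. Ikbkb encodes the IKK beta kinase that releases NF-kB, and ran from 737 to 1049 CPM, median 793, against 527 to 725 CPM, median 629, with no overlap. Its log2 fold change was 0.48 (SE 0.11, edgeR adjusted p = 0.0122), called in all 12 fits with 1 library left out. Cflar encodes c-FLIP, an inhibitor of caspase-8 activation at death receptors. It ran from 457 to 606 CPM against 375 to 488 CPM, ranges that overlapped, with a log2 fold change of 0.34 (SE 0.09, adjusted p = 0.0208), called in 11 of 12 such fits, the exception being that without biotin-positive replicate 4.

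Tab2, an adaptor of the kinase TAK1, was at 35.8 to 69.5 CPM in the biotin-positive and 23.6 to 41.9 CPM in the biotin-negative libraries. Its log2 fold change was 0.75 (SE 0.20, edgeR adjusted p = 0.0259), called in 7 of the 12 fits with 1 library left out. It was lost without biotin-positive replicate 5 or 6 or biotin-negative replicate 1, 3 or 4. Under the fit with detected genes as a covariate, which did not overlap between these groups, none of the 35 was called. With the T cell covariate, which barely overlapped between them, 1 was, Cflar.

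In edgeR 2 of the 35 signalling genes were higher in the biotin-positive than in the null cells and none lower, with a median log2 fold change of 0.12, beside 1.22% of all genes higher. DESeq2 and limma voom also called Relb, an NF-kB subunit, lower (-0.39, adjusted p = 0.0198, and -0.37, adjusted p = 0.0384), and DESeq2 called Traf3 higher (0.85, adjusted p = 0.0125). Tnfaip3 encodes A20, a ubiquitin-editing inhibitor of NF-kB, and ran from 812 to 1222 CPM against 639 and 654 CPM, with a log2 fold change of 0.61 (SE 0.15, edgeR adjusted p = 0.0398). Cflar was at 368 and 372 CPM in the null libraries, a log2 fold change of 0.54 (SE 0.12, adjusted p = 0.0315). Neither group pair overlapped, but both calls were lost without either null library and without biotin-positive replicate 4. In addition, Tnfaip3 was lost without biotin-positive replicate 5 or 6, and Cflar without replicate 3. Both were also lost in limma on the normalized signal, in a fit of those groups alone, with the replicate block and with the T cell covariate, and Cflar with no filter on low counts. In the biotin-negative against the null cells none of the 35 passed in edgeR, with a median log2 fold change of -0.10.

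**Figure D5:**
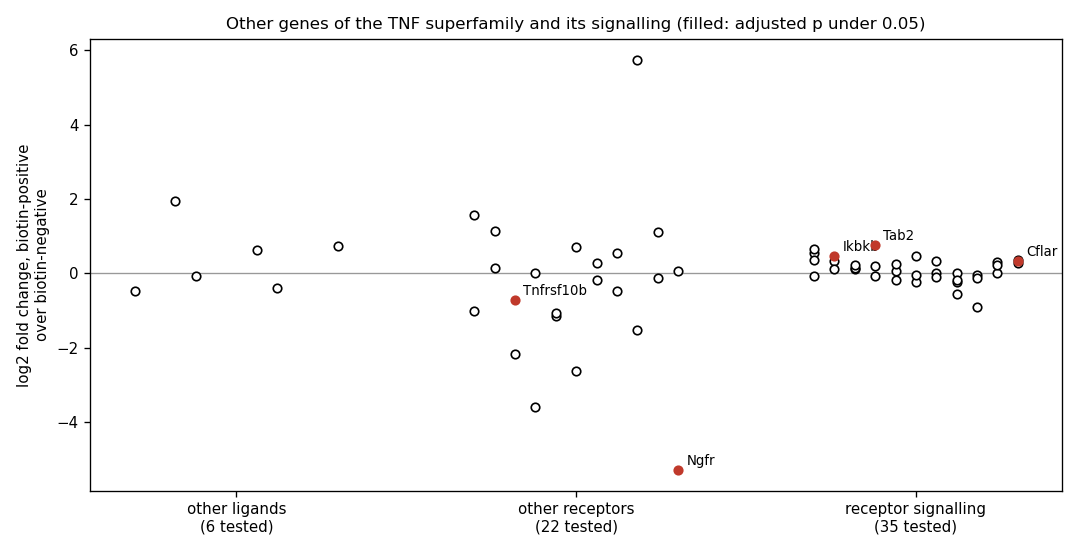
edgeR log2 fold change (linear axis) of biotin-positive over biotin-negative cells for the tested genes of the lists of other ligands (6), other receptors (22) and receptor signalling (35); each point is a gene, spread sideways for legibility, and filled points have an adjusted p under 0.05. The signalling genes lie between -0.91 and 0.75, with Ikbkb, Tab2 and Cflar filled above 0, and Tnfrsf10b and Ngfr are the filled receptors below 0.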

How the data were processed

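Dendritic cells from mouse popliteal lymph nodes were profiled in 14 libraries (6 biotin-positive, 6 biotin-negative, 2 Cd40-null), grouped by their GEO titles. Per the submitters' processing notes the build was mm10 and the tools included RSEM 1.2.8, Bowtie2 2.1.0 and DESeq2 1.16.0; their roles and the annotation are not given in the sources used here. The authors deposited RSEM expected counts for 23420 symbols, all whole numbers, and a table of normalized signal for 10321 genes. That table equals the counts divided by 1 factor per library, and it holds 9 of the 10 members, all but Tnfsf14. Dates stood in place of 27 symbols of the counts.

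Counts were tested with edgeR 4.0.16 (R 4.3.3) in 1 fit of all 14 libraries: filterByExpr at a minimum count of 10 (14217 genes), TMM factors, robust quasi-likelihood tests, Benjamini-Hochberg adjustment over all genes and a threshold of 0.05. SE is the absolute log2 fold change over the square root of F. Log2 CPM used a prior count of 2. Marker lists were compared by exact permutation over libraries. Every member was named, and other listed genes if called with a mean of at least 5 CPM. The members and lists were chosen with earlier results of these data known. The depth of 14518099 to 33260704 counts puts 3 counts at 0.0928 to 0.213 CPM. Alternatives used DESeq2 1.42.0, limma 3.58.1, other factors, filters and covariates, a replicate block, and each library left out. Libraries of a group differed by more than sampling noise (chi-square per degree of freedom at least 35.3), so none was a repeat deposit. Positions are from GENCODE M21 (GRCm38). The procedure was also run on simulated counts with known folds in randomly drawn genes, which does not give its power for the members not called.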

Additional observations from a re-analysis of the deposited data

Results flagged for a closer look

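In the 20 groups of 6 libraries formed by the 10 members, the extreme library was screened for standing apart from the rest by Dixon's gap ratio. For normally distributed values chance passes it in about 1 group in 20. There were 4 such libraries. Tnfrsf9 stood at 419 CPM in biotin-positive replicate 5 (13542 counts), with the nearest library of that group at 307 CPM. Cd70 stood at 9.44 CPM in biotin-negative replicate 2 (238 counts), with the next at 3.15 CPM. Tnfsf14 stood at 1.14 CPM in biotin-positive replicate 5 (37 counts) and at 0.0468 CPM in biotin-negative replicate 3 (1 count), in both groups against 0 in every other library. Where a single library holds counts the gap ratio is 1 whatever its level. The Tnfsf14 entries were therefore fixed in advance, and the rate of 1 in 20 does not apply to them.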

How the results depend on the processing

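Of the members' values, the direction of Tnfsf9 and Fas between biotin-positive and biotin-negative cells and that of Tnfsf9 against the null cells held in every alternative run. A stable direction does not set them apart. It was also found for Tnfrsf4, Tnfrsf9 and Tnfsf13b between the sorted populations and for Fas and Cd70 against the null cells, among others, none of them called in the main fit. The number of members called in biotin-positive against biotin-negative cells was 1. It became 2 with no filter on low counts (beside 997 of 20342 genes), in DESeq2 (1589 of 14217) and in limma voom (1278 of 14217). It became 0 with a covariate for genes detected or for T cell markers. With 1 library left out it ranged from 0 to 2. DESeq2 called 1 member in the biotin-positive against the null cells, beside 790 of 14217 genes. In the biotin-negative against the null cells 1 was called with no filter (beside 50 of 20342 genes) and in DESeq2 (266 of 14217). The same held in limma on the deposited normalized signal, log2 of the value plus 1 (51 of 10319), and in a fit of those groups alone (29 of 13685).

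Genes called in biotin-positive against biotin-negative cells (1102) fell to 11 with detected genes and to 495 with T cell markers as a covariate, and ranged from 839 to 1106 with 1 library left out. In biotin-positive against null cells (323) they were 790 in DESeq2, 603 in limma voom and 215 in limma on the normalized signal, and ranged from 78 to 346. In biotin-negative against null cells (45) they were 266 in DESeq2, 29 in a fit of those groups alone and 6 with either covariate, and ranged from 12 to 48. The lowest values came without Cd40-null replicate 1 or 2. Genes detected did not overlap between the biotin-negative and the other libraries, so in the comparisons of the biotin-negative cells that covariate can hardly be told from the group. The T cell marker level barely overlapped between the biotin-positive and biotin-negative libraries, so there it can be told from the group only in part.

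Replicate numbers did not pair the libraries: deviations of same-numbered biotin-positive and biotin-negative libraries correlated between -0.02 and 0.01. With the replicate block in edgeR 2 members were called in biotin-positive against biotin-negative cells, beside 891 of 14217 genes. They were Tnfsf9 (log2 fold change -1.70, adjusted p = 0.0154) and Fas (adjusted p = 0.0177). The counts against the null cells were 129 and 19 genes. Under the block Tnfsf13b and Tnfrsf9 turned to -0.0233 and -0.14 in biotin-negative against null cells.

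Other values that changed sign were those of members not called. Tnfsf13b in biotin-negative against null cells was -0.0987 in limma voom and -0.0175 in limma on the normalized signal. With detected genes as a covariate Cd70, Ltb and Tnf in biotin-positive against biotin-negative cells were -1.49, -0.93 and 0.45, and Ltb and Tnfrsf9 in biotin-negative against null cells 0.24 and -0.0897. With the T cell covariate Tnfsf4, Ltb and Tnf were 0.46, -0.31 and 0.51 in the first comparison, and Tnfsf4, Tnfsf13b, Ltb, Tnf and Tnfrsf4 were -1.28, -1.94, 0.13, -0.0329 and -0.0072 in the last. With 1 library left out (the values of Tnfsf14 are fitted over groups at or near 0 and are no estimate of a fold) Ltb ranged from -0.10 to 0.42 between the sorted populations. In biotin-positive against null cells Tnfsf4 ranged from -1.41 to 3.15, Tnfsf14 from -2.85 to 5.04, Ltb from -1.07 to 0.17 and Tnf from -0.29 to 2.81. In biotin-negative against null cells Tnfsf4 ranged from -0.40 to 4.16, Tnfsf13b from -0.11 to 0.71, Tnfsf14 from -6.91 to 1.18, Ltb from -1.17 to 0.0715, Tnf from -0.0686 to 3.02 and Tnfrsf9 from -0.0735 to 0.19. The B cell marker list changed sign without biotin-positive replicate 5 (-0.0493; range with 1 library left out -0.0493 to 0.81). The cause was not tested.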
